A study of Homo sapiens with 38 samples.

Results

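Translation initiation and elongation factors are the proteins that bring a ribosome to the start codon of an mRNA and then move it along the coding sequence. All protein-coding genes of the deposited table whose symbol begins with EIF1 to EIF6 or with EEF1 or EEF2 were taken, apart from 1 Y-linked gene. This gave 66 of 58219 genes. The rule uses gene names and types and no measured value, but it was set with earlier results of these data known. RNA levels were measured in the human embryonic stem cell line H9, in 19 groups of 2 libraries each. All groups are the wild-type line as far as the labels say, and no group carries an added gene or deletion. D0 ESC is the undifferentiated state at day 0. Day 4 (D4) and day 8 (D8) of neural induction each have 9 groups. IWP2 received the WNT secretion inhibitor of that name at 2.0 µM, and CT0.0 received no patterning agent. Groups CT0.4 to CT4.0 received the WNT activator CT (the labels do not spell the name out) at 0.4, 0.8, 1.0, 2.0, 3.0 or 4.0 µM, the dose being the number in the group's name. CT4.0RA received CT at 4.0 µM with retinoic acid (RA), a caudalizing vitamin A derivative, at 1.0 µM. The design ranks these from rostral forebrain (IWP2) through rising CT to spinal cord (CT4.0RA). The labels call the 2 libraries of a group biological replicates and do not state that the differentiations were separate. The p of a comparison between groups therefore measures only the spread between these libraries, which may be technical, and the p of a slope on group means measures the scatter of the groups about the line.

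Initiation begins when eIF2 carries the initiator tRNA to the small ribosomal subunit, where eIF1, eIF1A, eIF5 and the large eIF3 complex help to find the start codon. eIF4F (the cap-binding eIF4E, the scaffold eIF4G and the helicase eIF4A) loads the mRNA, and the 4E-binding proteins compete with eIF4G for eIF4E. In elongation, eEF1A delivers aminoacyl-tRNA, the eEF1B subunits recharge eEF1A with GTP, and eEF2 moves the ribosome by a codon. Many mRNAs for ribosomal proteins and elongation factors begin with a C followed by an unbroken run of pyrimidines, the 5′ terminal oligopyrimidine (TOP) tract, through which mTOR signalling controls their translation and stability. The question put to these data was which of the factors go up and down with the share of RNA held by ribosomal protein genes across the 19 groups, and which do not.

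Values are TPM, transcript abundances that are corrected for length and add up to the same total in every library. Levels can therefore be compared between genes, but the number of reads behind a value is unknown. In bulk RNA, fewer cells of a type and less RNA per cell cannot be told apart. The 79 cytosolic ribosomal protein genes held between 17.2% and 39.3% of TPM per library, with a median of 26.4%, and mitochondrially encoded genes held 5.58% to 11.5%. Of 38 libraries, 33 correlated best with the other library of their group, and within-group r was 0.958 to 0.972. The libraries of CT3.0 and CT4.0 stood apart in the sum of progenitor markers on both days. The summed level of 8 neural progenitor markers was 456 to 569.7 TPM there at day 4, against 789 to 1216 TPM in the other day 4 libraries, and 383 to 448 TPM at day 8, against 945 to 1747 TPM. The summed level of 10 neuron markers did not set them apart at day 4, with 239.7 to 314 TPM there and 138 to 312 TPM in the other day 4 libraries. At day 8 it was 182 to 217 TPM in these 4 libraries and 389 to 951 TPM in the others, but ELAVL3, ELAVL4 and SNAP25, 3 of the 10, had higher means in D8 CT4.0 (10.1, 4.35 and 4.35 TPM) than in D8 CT0.0 (1.45, 0.543 and 2.64 TPM). By the summed progenitor markers these 2 doses go against the neural label, so results that rest on them are given with and without them. The part of these cells in each result was not tested. PAX6, SOX1 and HES5, 3 of the 8 progenitor markers, were at 1.54, 0.113 and 0.34 TPM (mean of 2 libraries) in D8 CT4.0 and at 110.5, 13.8 and 156 TPM in D8 CT0.0. These genes and NES, CDH2 and MSI1 were lower in D8 CT4.0 than in each day 8 group outside CT3.0. SOX2 and FABP7 were not, with 144 and 38.3 TPM in D8 CT4.0 against 107 and 36.5 TPM in D8 CT4.0RA. SOX1 and HES5 were also low in D4 IWP2, at 0.949 and 0.218 TPM. At day 4 the lower sum was not shared by all 8 markers. PAX6, NES and HES5 were lower in D4 CT3.0 and D4 CT4.0 than in each day 4 group outside these doses. SOX1, FABP7 and MSI1 were so in D4 CT4.0 only. SOX2 and CDH2 were so in neither, with 194 and 119 TPM in D4 CT4.0 against 183 and 95.7 TPM in D4 CT4.0RA. D0 ESC matched its label, with a mean of 2457 TPM of the pluripotency gene POU5F1 against 0.701 TPM in D8 CT0.0. Mesoderm markers, of which 4 of the 5 listed were found in the deposited data, summed to at most 3.40 TPM in the CT3.0 and CT4.0 libraries. Endoderm markers summed to at most 0.288 TPM in the CT3.0 and CT4.0 libraries. Surface ectoderm markers summed to 52.8 to 98.4 TPM there at day 4, against 8.74 to 32.4 TPM in the other libraries, with 1 of the 5 genes at 1 TPM or more and KRT5 and KRT14 listed at 0. At day 8 they summed to 30.2 to 49.0 TPM, against 5.07 to 98.1 TPM. Neural crest markers summed to 27.4 to 39.1 TPM there at day 4 and 9.56 to 12.7 TPM at day 8, against 5.73 to 105 and 13.9 to 195 TPM.

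The factors are abundant mRNAs, and elongation factors dominate them. Together the 66 genes held between 2.32% ± 0.055 of TPM (SD, n = 2) in D8 IWP2 and 3.83% ± 0.027 in D8 CT4.0RA. EEF1A1, which encodes the main eEF1A, alone held 0.96% to 2.05% per library. Without EEF1A1 the remaining members held 1.32% to 1.79%, a narrower range. By summed mean level over the 38 libraries, the 7 elongation factors held 19982 TPM, the 14 eIF3 genes 4302 TPM and the 11 genes of eIF4F and its helpers 2667 TPM. The 8 start site selection factors held 1069 TPM, the 3 eIF2 subunits 453 TPM and the 5 subunits of eIF2B, the exchange factor that recharges eIF2, 181 TPM. The 4 eIF2 kinases held 124 TPM. Of the 66 genes, 63 passed the filter of at least 1 TPM in at least 2 libraries. EEF1E1-BLOC1S5, EIF2S3L and EIF5AL1 did not and were not tested. The highest group mean was a median of 2.09 times the lowest over the tested members. It was under 2-fold for 28 members and at least 2-fold for 34, and EIF4E1B had a group at 0. D0 ESC was the highest group for 16 members, D8 CT4.0RA was the highest for 8 and the lowest for 10.

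Across the 19 groups, 9 of the 63 tested factors followed the ribosomal protein share, and they were the abundant elongation factors EEF1A1, EEF1G and EEF1B2, the eIF3 subunits EIF3L, EIF3H, EIF3D and EIF3E, the helicase cofactor EIF4B, and EIF2D, a tRNA-delivering factor outside the main pathway. Each gene's group mean of log2(TPM + 1) was fitted on the log2 of the group's ribosomal protein share with limma. The slope is in log2 units per doubling of the share, so a slope of 1 means a proportional rise. Following means an adjusted p under 0.05 and a slope of at least 0.5. Among all 28221 genes tested 1.08% followed, and among protein-coding genes 1.38% did. The ribosomal protein genes themselves, which make up the share, had a median slope of 0.97. The median over all genes was -0.33 and over the 63 members -0.21. The slopes of the followers were 0.99 ± 0.14 (SE, over 19 group means) for EIF4B, 0.98 ± 0.09 for EIF3L, 0.94 ± 0.11 for EEF1G, 0.88 ± 0.09 for EEF1A1, 0.88 ± 0.17 for EIF2D and 0.85 ± 0.08 for EIF3H. They were lower for EIF3D (0.71 ± 0.11), EIF3E (0.68 ± 0.10) and EEF1B2 (0.55 ± 0.10), the follower closest to the threshold. Just outside it lay EIF4A2, the eIF4A paralogue, at 0.66 ± 0.24, adjusted p = 0.0538, and EIF1, just under 0.5 and not called, at 0.50 ± 0.26, adjusted p = 0.19. EIF3M, EIF2S3, EEF2 and EEF1D passed the test with slopes of 0.34 to 0.45, under the threshold. In all 26 of 63 members passed the test, 13 in each direction, against 18.9% of all genes. At the other end 11 members had a called slope of -0.5 or less, against 16.9% of all genes and 25.7% of protein-coding genes, a share near the background. The other 37 members did not pass the test.

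All 9 followers kept a called slope of at least 0.5 without D8 CT4.0RA, the group with the highest share, and again without the CT3.0 and CT4.0 groups of both days, where 0.911% of all genes followed. Within day 8 alone 8 of the 9 were called at 0.5 or more, and within day 4 alone 5 were, with a positive slope for all 9. With a term for each day, 12 members followed and 12 ran against the share, beside 1.62% and 25% of all genes. EIF4A2, EIF3M and EIF2S3 joined the 9. The share is part of a fixed total, so a higher share lowers the TPM of other genes. When TPM was rescaled to the total without ribosomal protein and mitochondrial genes, the median slope over all genes was -0.12 instead of -0.33. On that scale 17 members followed, against 1.38% of all genes.

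**Figure D1:**
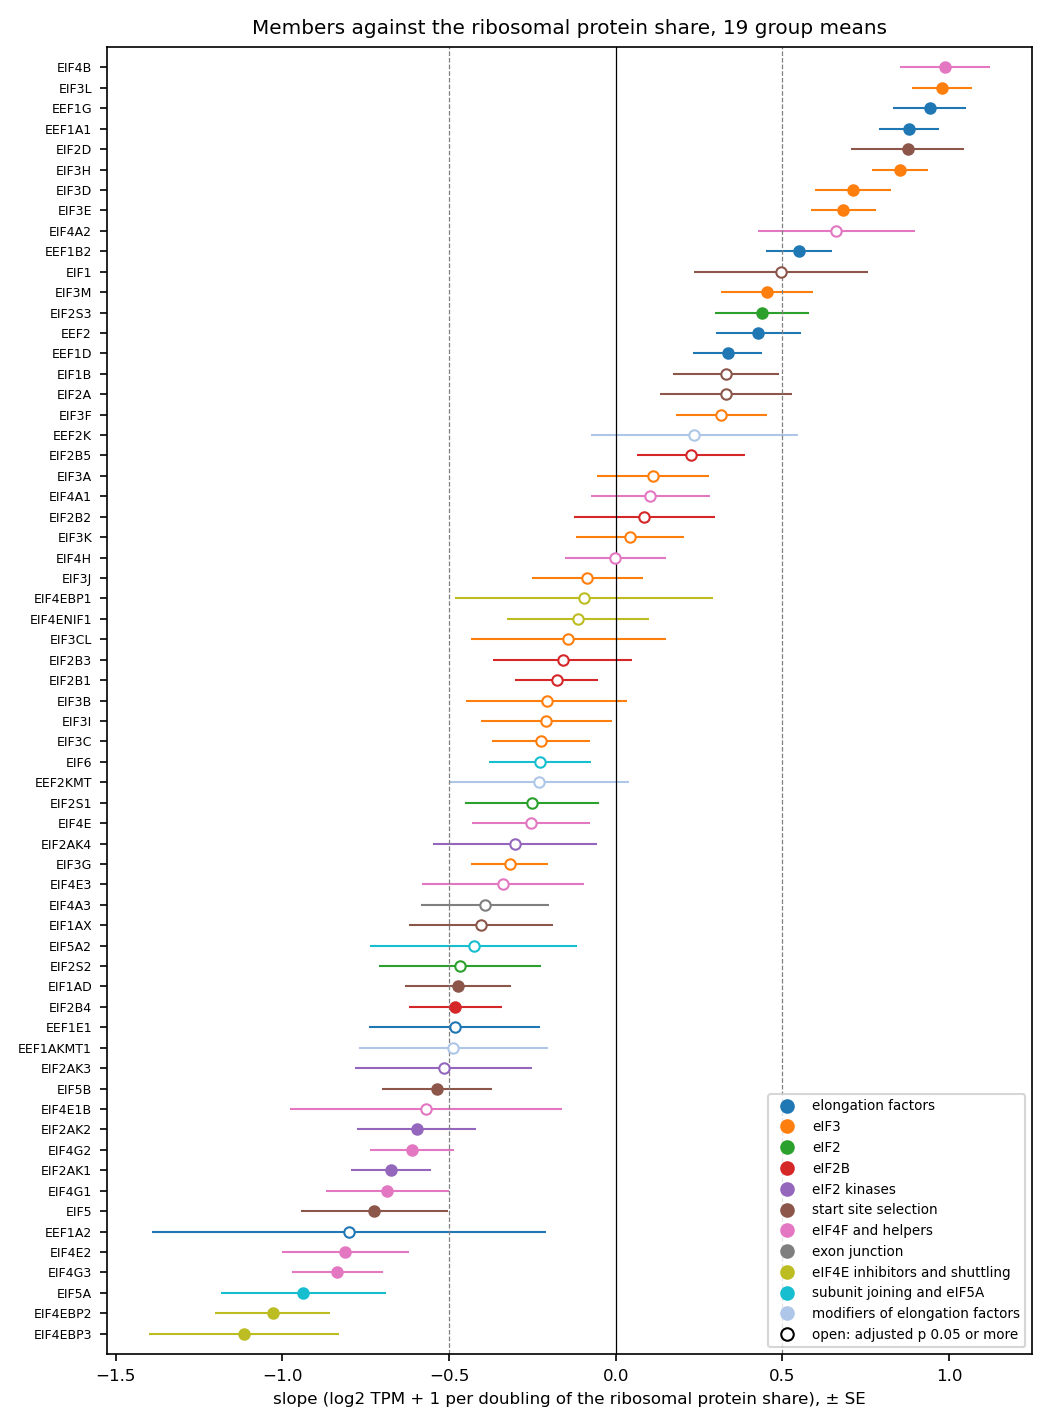
Slope on the ribosomal protein share for the 63 tested factors, in log2 units per doubling of the share, ordered by value. Points are slopes with SE bars over 19 group means, colours mark roles, open points did not pass the test and dashed lines mark 0.5 and -0.5. The 9 followers on the right run from 0.55 to 0.99, and EIF4EBP3, EIF4EBP2 and EIF5A lie at the other end.

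EEF1A1 (chromosome 6, 73515750 to 73523797, GRCh38, GENCODE 29) was the most abundant member, with 9601 TPM in its lowest library and 20511 in its highest. It stood at 12729.8 and 10937 TPM in the 2 D0 ESC libraries, 11212 and 11163 TPM in D4 CT0.0 and 10635 and 10179 TPM in D8 CT0.0. D4 CT1.0 reached 18444 and 18597 TPM and D8 CT4.0RA 20511 and 20142 TPM. The libraries of the last 2 groups lie above all libraries of the untreated groups. The slope on the share was 0.88 ± 0.09, adjusted p = 1.3e-06 (limma, Benjamini-Hochberg). EEF1G and EEF1B2, subunits of the exchange complex, also followed the share. EEF1G stood at 1799 and 1514 TPM in D0 ESC, its lowest group, and at 4279 and 4163 TPM in D8 CT4.0RA. EEF1D, another exchange subunit, had a slope of 0.34 ± 0.10, adjusted p = 0.0293. EEF2, the translocase, had a slope of 0.43 ± 0.13, adjusted p = 0.025. D8 CT4.0RA was its highest group, at 1872 and 1928 TPM, but D4 CT4.0RA, with a ribosomal protein share of 30.9% ± 0.093 (SD, n = 2), held its lowest level, 1229 and 1037 TPM. EEF1E1, a scaffold protein of the aminoacyl-tRNA synthetase complex, had a slope of -0.48 ± 0.26, adjusted p = 0.197, with 116 and 144 TPM in D0 ESC and 51.0 and 43.7 TPM in D8 CT4.0RA. EEF1A2, the eEF1A of mature muscle and neurons, was at 20.7 and 16.7 TPM in D0 ESC and at most 1.37 TPM in any other library. At its peak it made up 0.157% of EEF1A RNA.

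**Figure D2:**
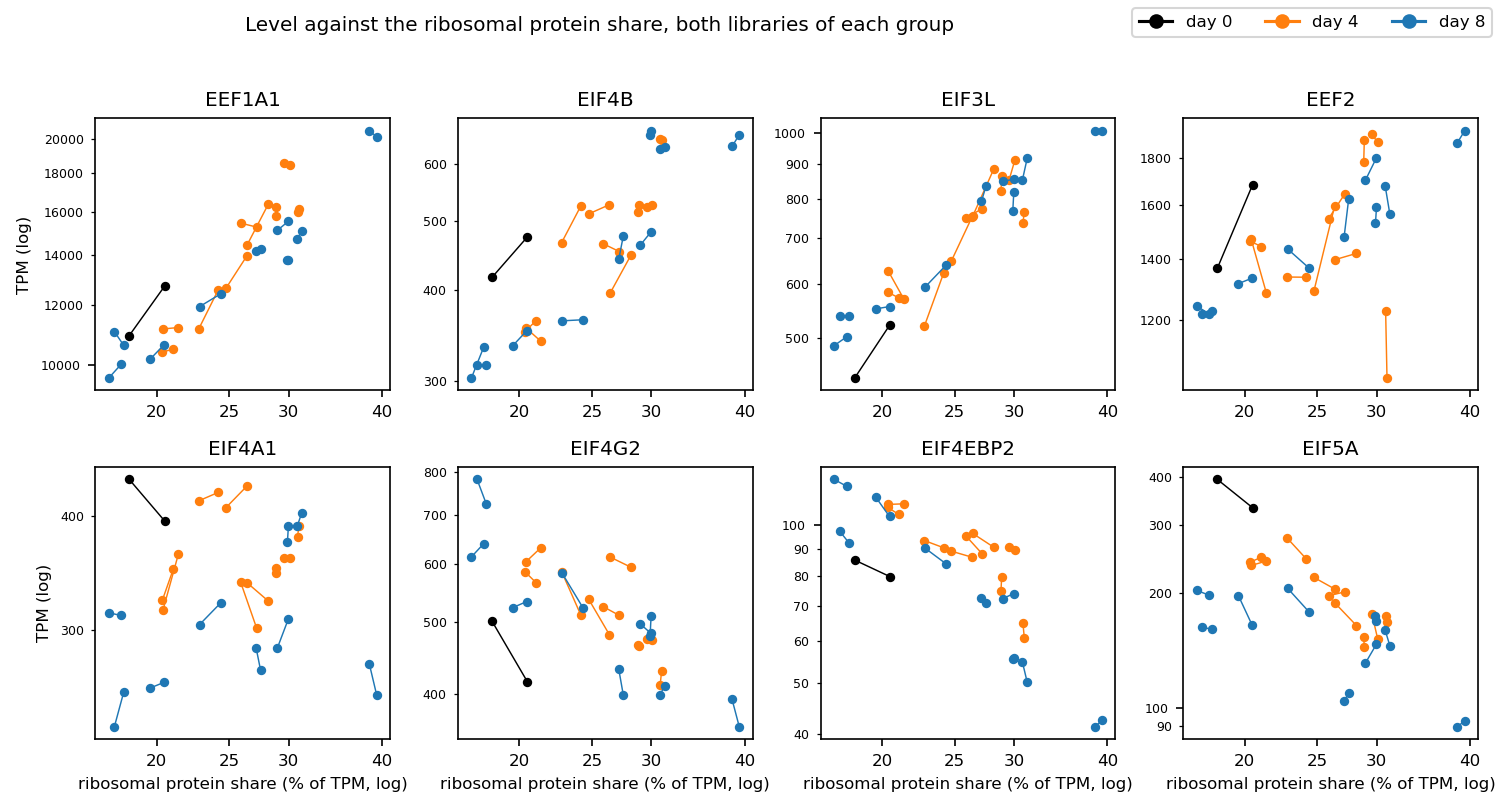
TPM against the ribosomal protein share in percent, both on log axes, for 8 members. Each group's 2 libraries are joined by a line and coloured by day. EEF1A1, EIF4B and EIF3L climb with the share, EEF2 climbs less steeply, EIF4A1 shows no called slope, and EIF4G2, EIF4EBP2 and EIF5A descend.

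Within eIF3, the scaffold that coats the small subunit, the subunits split. The split was drawn after the values were seen, between the subunits that also make up yeast eIF3 (EIF3A, EIF3B, EIF3C, EIF3G and EIF3I) and the others of the mammalian complex, without the loosely bound EIF3J and the copy EIF3CL. None of the 5 core subunits passed the test on the share, with slopes of -0.32 to 0.11 and a median of -0.21. Of the other 7, 5 passed and 4 followed, with a median of 0.68. No test of the split is given. EIF3L (chromosome 22, 37848868 to 37889407) stood at 522 and 436 TPM in D0 ESC, its lowest group, and 1007 and 1005 TPM in D8 CT4.0RA. At day 4 it rose to 912 and 853 TPM in CT1.0 and was back at 621 and 519.7 TPM in CT4.0, where the share was lower too. EIF3H had 260.0 and 269 TPM in D8 CT0.4 and 479.8 and 509 TPM in D8 CT4.0RA. EIF3B, a scaffold of the core, was highest in D0 ESC and lowest in D8 CT0.8. It stood at 231 and 219 TPM in D0 ESC and 84.2 and 85.6 TPM in D8 CT0.8. EIF3C and EIF3CL are near-identical copies, so how reads were divided between them is uncertain.

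The start regions of the mRNAs were read for the pyrimidine tract of TOP mRNAs. RefSeq (GRCh38.p14) start regions were held for 50 of the 63 tested members. The tract was searched on the gene's strand as a C at the annotated start followed by at least 4 bases that are each C or T. It was present in 11 of 50 members (22%), against 5.04% of tested genes with an entry, 4.07% of all 35116 RefSeq promoters of the same length and 68.3% of 63 ribosomal protein genes with an entry. It stood in 4 of 6 followers with an entry, in 7 of 34 members that neither followed nor ran against the share, and in 0 of 10 members that ran against it. In the windows printed here, position 16 of 30 is the annotated start and capitals mark the tract. The 4 followers that hold it come before 2 ribosomal protein genes, for comparison.

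EIF4B, chr12:53006441-53006470, plus strand: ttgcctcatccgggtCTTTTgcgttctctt
EEF1A1, chr6:73521018-73521047, minus strand: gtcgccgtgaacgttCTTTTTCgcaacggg
EIF2D, chr1:206612451-206612480, minus strand: ggtttccagccgggcCCTTTTCgcggccgg
EIF3D, chr22:36529152-36529181, minus strand: gcgcgcgcatgtttcCTCTTTTCCTggttt
RPS6, chr9:19380222-19380251, minus strand: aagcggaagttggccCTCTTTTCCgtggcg
RPLP0, chr12:120201097-120201126, minus strand: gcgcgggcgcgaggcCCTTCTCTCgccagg

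Capitals are absent from the window of EEF1G and EEF1B2, which also followed. Both are nevertheless among the 8 members listed as known TOP mRNAs (EEF1A1, EEF1B2, EEF1D, EEF1G, EEF2, EIF3E, EIF3F and EIF3H). EIF4A2, EIF3M, EIF2S3 and EEF2, with slopes of 0.43 to 0.66 that did not reach the following call, hold the tract:

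EEF1G, chr11:62573877-62573906, minus strand: tctcccgggcggcttactttgcggcagcgc
EEF1B2, chr2:206159594-206159623, plus strand: gccggaagtggccccagcctcgaggccggg
EIF4A2, chr3:186783562-186783591, plus strand: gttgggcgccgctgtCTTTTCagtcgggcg
EIF3M, chr11:32583816-32583845, plus strand: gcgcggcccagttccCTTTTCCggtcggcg
EIF2S3, chrX:24054941-24054970, plus strand: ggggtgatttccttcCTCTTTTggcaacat
EEF2, chr19:3985449-3985478, minus strand: gttgacgtcagcgttCTCTTCCgccgtcgt

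EIF4A1, the paralogue of EIF4A2 without a called slope, and the members EIF4EBP2, EIF5A and EIF4G1, which ran against the share, have no tract at the annotated start:

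EIF4A1, chr17:7572810-7572839, plus strand: aggcgggcactccgccctagtttctaagga
EIF4EBP2, chr10:70404130-70404159, plus strand: ctcccgccttcgcccgcttccggtcgtcgt
EIF5A, chr17:7306984-7307013, plus strand: atgggtgggaacccgaccacactagcgcgc
EIF4G1, chr3:184314591-184314620, plus strand: tctgtgcggggagccggaaatggttgtgga

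All 11 members with the tract had a positive slope, from 0.04 (EIF3K) to 0.99 (EIF4B), with a median of 0.45. The 39 without it had a median of -0.30. EIF2A, EIF3F and EIF3K are the other 3 that hold it. Outside the members and the ribosomal protein genes, 28 of 585 genes with the tract followed (4.79%), and their median slope was -0.31. Of 11971 such genes without the tract 83 followed, and their median slope was -0.45. A match describes these letters at an annotated start, and start sites used in these cells were not measured. EIF3L, EIF3H and EIF3E are followers with no entry.

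**Figure D3:**
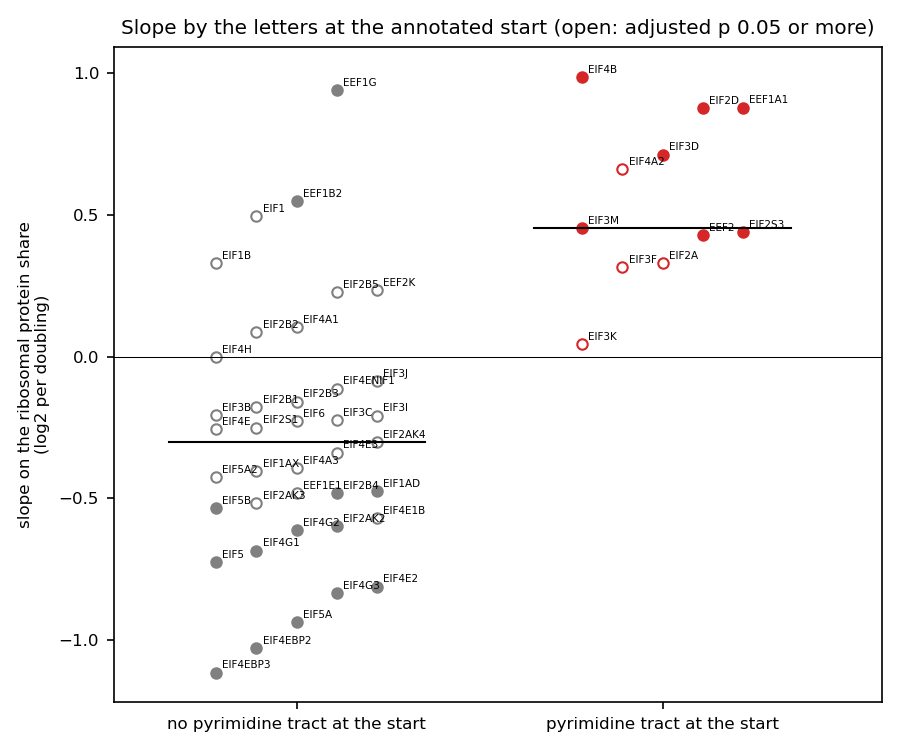
Slopes on the ribosomal protein share, in log2 units per doubling, of the 50 members with a RefSeq start region, split by the presence of the pyrimidine tract at the start. Each point is a member and the bar is the group median, 0.45 with the tract and -0.30 without. All 11 members with the tract lie above 0.

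Of the start site selection factors, EIF2D followed and EIF5 ran against the share (-0.72 ± 0.22, adjusted p = 0.0267), together with EIF5B, the GTPase of subunit joining (-0.54 ± 0.17, adjusted p = 0.0287). EIF5, which makes eIF2 hydrolyse its GTP, and EIF1 took opposite paths at the highest CT doses of day 8. The protein of EIF1 keeps the scanning ribosome from settling on a wrong codon. EIF1 stood at 766 and 785 TPM in D8 CT3.0 and 820.1 and 779 TPM in D8 CT4.0, above the 297 to 477 TPM of the D8 CT0.0 to CT2.0 libraries. EIF5 stood at 146 and 118 TPM and 138 and 139 TPM there, below the 192 to 352 TPM of the others. These 4 libraries are those with low progenitor markers. At day 4 the mean of EIF5 in CT4.0, 277 TPM, lay between those of CT1.0 (206 TPM) and CT0.0 (295 TPM). EIF1 had means of 413 TPM in D4 CT4.0 and 321 TPM in D4 CT0.0. EIF1AX, the X-linked eIF1A gene, EIF1B and EIF2A did not pass the test on the share, and EIF1AD had -0.47 ± 0.16, adjusted p = 0.0421. Of the eIF2 subunits, EIF2S3 (the GTP-binding gamma subunit) had 0.44 ± 0.14, adjusted p = 0.0343, while EIF2S1 (alpha, the subunit that stress kinases phosphorylate) had -0.25 ± 0.20, adjusted p = 0.406 and EIF2S2 (beta) -0.47 ± 0.24, adjusted p = 0.185. Among the 5 eIF2B subunits only EIF2B4 passed, with -0.48 ± 0.14, adjusted p = 0.0213, and on the rescaled total its slope was -0.14, not called. The kinases EIF2AK1 (heme-regulated) and EIF2AK2 (activated by double-stranded RNA) ran against the share with -0.67 ± 0.12 and -0.60 ± 0.18. EIF2AK3, of the endoplasmic reticulum, and EIF2AK4, which senses amino acid lack, did not pass.

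Of 15 tested genes of the cap-binding machinery and its inhibitors, a sum of 2 roles, EIF4B followed and 6 ran against the share, beside the 16.9% of all genes and 25.7% of protein-coding genes given above. No test of that count is given. EIF4B (chromosome 12, 53006158 to 53042209) had the highest slope of the tested members, 0.99 ± 0.14, adjusted p = 8.0e-05. It stood at 302 and 334 TPM in D8 IWP2, 352 and 335 TPM in D8 CT0.0, 666 and 658 TPM in D8 CT4.0 and 634 and 658 TPM in D8 CT4.0RA, with no overlap between the former and the latter pair of groups. The scaffolds EIF4G1, EIF4G2 and EIF4G3 had slopes of -0.68 ± 0.18, -0.61 ± 0.13 and -0.84 ± 0.14. EIF4G2, which lacks the eIF4E-binding part, stood at 782 and 723 TPM in D8 CT0.4 and 393 and 361 TPM in D8 CT4.0RA. EIF4E, the cap-binding protein, did not pass (-0.25 ± 0.18, adjusted p = 0.331), and EIF4E2, its repressive relative, ran against the share (-0.81 ± 0.19, adjusted p = 0.00627). Of the 4E-binding proteins, EIF4EBP2 stood at 122 and 118 TPM in D8 IWP2 and 41.3 and 42.4 TPM in D8 CT4.0RA (slope -1.03 ± 0.17, adjusted p = 5.8e-04), and the scarce EIF4EBP3 had a slope of -1.12 ± 0.29. EIF4EBP1 showed no called slope (-0.09 ± 0.39, adjusted p = 0.888). EIF5A, which frees ribosomes stalled on proline runs, stood at 333 and 395 TPM in D0 ESC and 89.4 and 92.6 TPM in D8 CT4.0RA. Its slope was -0.94 ± 0.25, adjusted p = 0.0125. EIF5AL1 is a near-identical copy, so that division of reads is uncertain. EIF6, which keeps the large subunit from joining early, EIF4H, EIF4A1 and EIF4A3, the helicase of the exon junction complex, did not pass the test on the share.

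How firmly members run against the share depends on the scale. On the total without ribosomal protein and mitochondrial genes, EIF4EBP2 alone kept a called slope of -0.5 or less (-0.68), and EIF4G3 stayed called at -0.49. On that scale 89.5% of called members had a positive slope, against 50% on TPM, and EIF2B4 and EIF1AD, called negative on TPM, changed sign with median-of-ratios scaling. Without D8 CT4.0RA, 6 of the 11 were still called at -0.5 or less, and without the CT3.0 and CT4.0 groups 9 were, against 11.2% of all genes.

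From D0 ESC to untreated day 4 cells, 11 members rose and 25 fell, against 20.6% and 16.3% of all genes tested. The median log2 change was -0.14 over the members and 0.05 over all genes. At a log2 change of at least 1 in size, 2 rose and 4 fell, against 7.51% and 9.24%. EEF1A2 fell the most, from 20.7 and 16.7 TPM to 0.286 and 0.481 TPM (log2 change -3.83 ± 0.24, adjusted p = 1.4e-11, limma with Benjamini-Hochberg adjustment, on the log2(TPM + 1) scale that understates low genes). EIF4E1B, an oocyte-type cap-binding gene, went from 6.46 and 3.87 TPM to 0.55 and 0 TPM. EIF2AK4 fell from 62.6 and 61.6 TPM to 21.0 and 25.3 TPM (-1.39 ± 0.09, adjusted p = 2.3e-11) and EIF4EBP1 from 134 and 152 TPM to 67.5 and 68.8 TPM (-1.05 ± 0.13, adjusted p = 7.4e-07). In both genes the D0 ESC libraries lie above all others. EIF4ENIF1, which shuttles eIF4E into the nucleus, rose from 25.5 and 18.8 TPM to 51.0 and 46.3 TPM (1.11 ± 0.17, adjusted p = 1.1e-05), and EEF1AKMT1, a methyltransferase of eEF1A, rose by 1.02 ± 0.27. Of the elongation factors, EEF1G (0.56 ± 0.08), EEF1D (0.41 ± 0.07) and EEF1B2 (0.31 ± 0.07) rose, while the ribosomal protein share was 19.4% ± 1.5 in D0 ESC and 20.9% ± 0.7 in D4 CT0.0. EEF1A1 was not called.

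Between untreated day 4 and day 8 cells, 4 members rose and 15 fell, against 11% and 7.73% of all genes. At a log2 change of at least 1 in size 1 rose and 0 fell, against 4.11% and 1.67%. The median was -0.08 over the members and 0.01 over all genes. EIF3B fell from 172 and 162 TPM to 98.8 and 108 TPM (-0.69 ± 0.08, adjusted p = 1.0e-06, limma), with EIF3I, EIF3A, EIF3C and EIF3G, so that the 5 eIF3 core subunits of the split drawn after the values were seen all fell and none of the other 9 eIF3 genes were called. EIF1AX fell too, with a log2 change of -0.56 ± 0.10. EIF4A1 fell from 363 and 315 TPM to 262 and 259 TPM while EIF4A2 rose from 404 and 417 TPM to 566 and 501 TPM. EEF2K, the kinase that inhibits eEF2, rose by 0.58 ± 0.20. EIF5A2 was called higher (1.24 ± 0.43, adjusted p = 0.0484), from 2.71 and 2.81 TPM to 4.80 and 12.6 TPM, a rise in which replicate 2 of D8 CT0.0 stands far above replicate 1. Without replicate 1 of D8 CT0.0 the count of called members was 9 instead of 19.

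IWP2 changed no member at either day against untreated cells by limma (0 of 63, against 0.695% of all genes at day 4 and 0.78% at day 8). At an unadjusted p under 0.05, 1 member was higher and 6 lower at day 4, and 8 were higher and 2 lower at day 8, against 11.7% and 11% of all genes in either direction, a share near the background. The smallest adjusted p was 0.112 at day 4 and 0.0549 at day 8. Over the 9 conditions the F test passed for 45 of 63 members at day 4 (71.4%) and 58 at day 8 (92.1%), against 46.4% and 57.9% of all genes.

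More members had a called slope over CT dose at day 8 than at day 4, and at day 4 the means of EEF1A1, EEF1G, EEF1B2 and EIF3L were highest at CT1.0 and lower again at CT4.0. The followers EIF3D and EIF3E did not take that path, with means from 316 TPM in CT1.0 to 345 TPM in CT4.0 for EIF3D and from 608 to 666 TPM for EIF3E. The mean of EIF4B was 348 TPM in CT0.0, 524 TPM in CT1.0 and 495 TPM in CT4.0. Over the 7 CT doses 24 members had a called positive slope per µM at day 4 and 7 a negative one, against 12.4% and 14.5% of all genes. At day 8 the counts were 32 and 16, against 10% and 38.3%. The difference between the days was called positive for 22 members and negative for 15, against 4.89% and 27.4%, and on the total without ribosomal protein and mitochondrial genes 80% of the calls were positive instead of 59.5%. All 8 members on a list of known TOP mRNAs (chosen with earlier results of these data known) rose at day 8, as did 78 of the 79 ribosomal protein genes. At day 4 none rose and 3 fell. Over CT0.0 to CT2.0 alone 6 of the 8 rose at day 4 and 7 at day 8, beside 74 and 78 of the ribosomal protein genes. In EEF1A1 the day 4 libraries went from 11212 and 11163 TPM in CT0.0 up to 18444 and 18597 TPM in CT1.0 and down to 12578 and 11179 TPM in CT4.0, as did the ribosomal protein share (20.9%, 29.8% and 23.5%). Over CT0.0 to CT2.0 alone, the slopes at day 4 became 0.22, adjusted p = 9.1e-06 for EEF1A1, 0.20, adjusted p = 6.1e-04 for EEF1G and 0.20, adjusted p = 9.7e-04 for EIF3L, from -0.05 ± 0.01, -0.05 ± 0.02 and -0.06 ± 0.02 over all doses, so their direction turned.

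Over CT0.0 to CT2.0 alone 14 members were higher and 16 lower at day 4, against 6.04% and 15.8% of all genes. Of the 31 called over all doses 17 kept their sign and 10 were called with it. At day 8 17 were higher and 9 lower, against 5.23% and 18.4%, and 34 of 48 kept their sign. The difference between days was called for 10 members instead of 37. At day 8 EIF4B had a slope of 0.27 ± 0.01 per µM over all doses and 0.26, adjusted p = 6.3e-07 over the lower ones, and EIF4EBP2 had -0.24 ± 0.01 and -0.26. EEF1A1 had 0.11 ± 0.01 and 0.28, EIF3H 0.19 ± 0.01 and 0.33, and EIF3L 0.15 ± 0.02 and 0.33. These genes rose or fell within CT0.0 to CT2.0 too. Other slopes rested on CT3.0 and CT4.0. EIF1 had 0.31 ± 0.02 over all doses and 0.07, adjusted p = 0.165 without them, EIF5 -0.32 ± 0.02 and -0.01, adjusted p = 0.932, and EIF4A2 0.24 ± 0.01 and -0.06, adjusted p = 0.275. EIF2B3 changed from 0.16 ± 0.02 to -0.25, adjusted p = 0.00166 and EIF4H from 0.14 ± 0.01 to -0.11, adjusted p = 1.1e-04, opposite calls. At day 4 the 2 members that rose most per µM were EIF4EBP1 (0.32 ± 0.03) and EEF2K (0.29 ± 0.04), which over the lower doses were 0.15, adjusted p = 0.0979 and 0.12, adjusted p = 0.446. EIF4E2 fell (-0.13 ± 0.03) at both ranges (-0.32). At day 8 7 called slopes, of EIF2B4, EIF2AK1, EIF4G2, EIF2AK4, EIF4A3, EIF4ENIF1 and EIF1AX, changed sign under at least 1 of the 2 other scalings.

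The shares of paralogues within their set are given as a description, with no test. EIF4A2 made up 59.3% and 51.9% of EIF4A1 and EIF4A2 RNA in the D0 ESC libraries and 52.7% and 57.0% in D4 CT0.0. At day 8 its mean share was 67.1% in CT0.0, 71.4% in CT0.4, 70.6% in CT0.8, 59.1% in CT1.0, 64.3% in CT2.0, 72.1% in CT3.0 and 71.8% in CT4.0, so it took no steady path along the doses. In D8 CT4.0RA it was 75.8%. EIF4EBP1 made up 61.0% and 61.9% of the 3 EIF4EBP genes in D0 ESC. At day 8 its mean share was lowest in CT0.4 (30.03%), between 39.9% and 44.2% in the other groups from CT0.0 to CT2.0, and 63.1% and 63.8% in CT3.0 and CT4.0. D8 CT4.0RA too held more of EIF4EBP1 (mean 74.7 TPM) than of EIF4EBP2 (41.8 TPM) and EIF4EBP3 (1.56 TPM). EIF4EBP2 was the most abundant of them in untreated day 4 cells (58.5% and 59.9%). EIF1B's mean share of EIF1 and EIF1B lay between 16.6% (D8 CT4.0) and 26.2% (D4 IWP2) over the 19 groups, and at day 8 CT0.4, with 19.1%, stood between CT3.0 (18.4%) and the other doses up to CT2.0. The 39 pseudogenes of EEF1A1 in the table together held at most 0.185% of the EEF1A1 level. How reads were divided among these near-identical copies is uncertain.

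**Figure D4:**
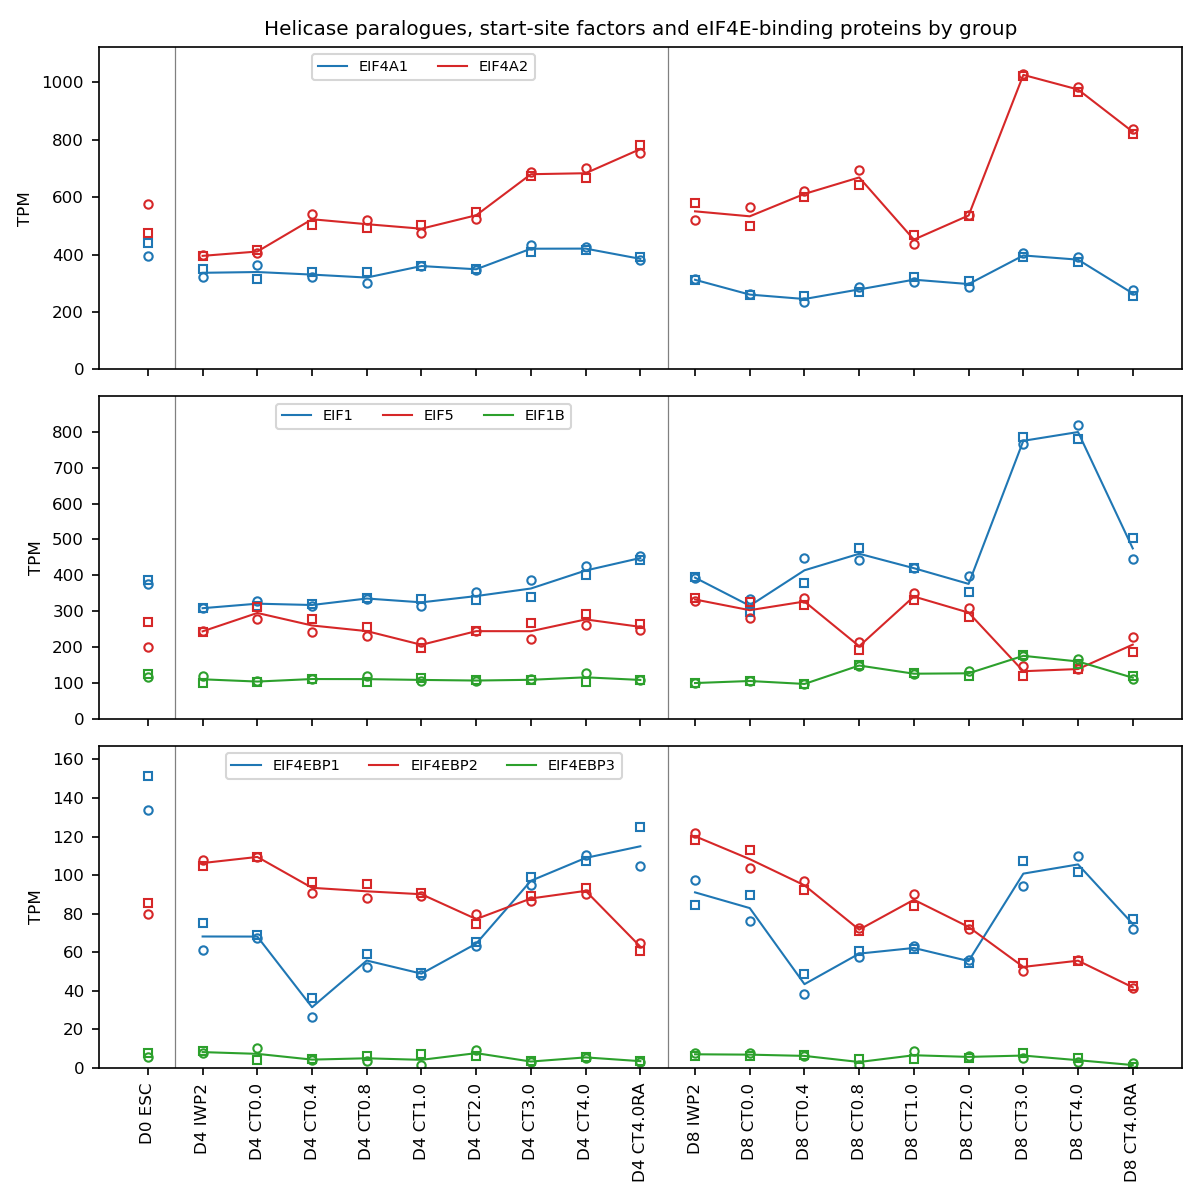
TPM by group for EIF4A1 and EIF4A2, for EIF1, EIF5 and EIF1B, and for the 3 EIF4EBP genes. Circles are replicate 1, squares are replicate 2 and lines join group means. EIF4A2 and EIF1 are highest and EIF5 lowest in D8 CT3.0 and D8 CT4.0, where progenitor markers are low.

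Retinoic acid on top of CT4.0 raised EEF1A1 and EEF1G on both days, and lowered the scaffolds EIF4G1 and EIF4G3 at day 4 and the eIF2B subunits EIF2B2 and EIF2B3 at day 8. The reference, CT4.0, is a group with low progenitor markers, so these contrasts cannot be run without it, and the part of that difference was not tested. At day 4, 7 members rose and 14 fell, against 3.54% and 17.4% of all genes. At day 8, 8 rose and 24 fell, against 10.1% and 15.3%. The median change was -0.12 over the members and -0.18 over all genes at day 4, and -0.19 and 0 at day 8. None reached a log2 change of 1 in size at day 4, where 1.77% of all genes rose and 4.07% fell by that much. At day 8 0 rose and 2 fell by that much, against 4.54% and 4.33%. EEF1A1 rose from 12578 and 11179 TPM to 16006 and 16134 TPM at day 4 (0.44 ± 0.06, adjusted p = 1.8e-05, limma) and from 13793 and 13777 TPM to 20511 and 20142 TPM at day 8 (0.56 ± 0.06, adjusted p = 4.2e-07). The ribosomal protein share rose beside it, from 23.5% to 30.9% and from 29.9% to 38.9%. EEF1G rose by 0.37 ± 0.08 and 0.60 ± 0.08, EIF3L by 0.40 ± 0.09 and 0.34 ± 0.09. EIF4B rose at day 4 (0.39 ± 0.06) and was -0.04 ± 0.06 at day 8, not called. At day 4 EIF4G1 fell from 157 and 188 TPM to 101 and 91.5 TPM (-0.83 ± 0.14, adjusted p = 7.7e-05) and EIF4G3 fell too, with -0.62 ± 0.10. At day 8 EIF2B2 fell from 60.9 and 56.0 TPM to 28.99 and 27.2 TPM (-1.03 ± 0.13, adjusted p = 1.9e-06) and EIF2B3 from 33.4 and 39.0 TPM to 16.6 and 18.1 TPM (-1.02 ± 0.12, adjusted p = 5.9e-07), the 2 largest falls. EIF5A fell as well (-0.91 ± 0.10). EIF4E3, a distant cap-binding paralogue, rose from 5.72 and 6.25 TPM to 10.6 and 12.3 TPM, and EEF2KMT, a methyltransferase of eEF2, from 6.90 and 9.497 TPM to 13.1 and 14.7 TPM. Scaling matters here. On the total without ribosomal protein and mitochondrial genes the median shift over all genes was 0.13 at day 4 and 0.15 at day 8. Of the day 4 calls 70.6% were then higher instead of 33.3%, and of the day 8 calls 42.9% instead of 25%. EIF2B5, EIF4H, EIF3A and EIF2B1, called at day 4, changed sign under at least 1 of the 2 other scalings. The RA effect differed between the days for 5 members upward and 14 downward, against 10.6% and 4.58%. At a difference of at least 1 in size the counts were 0 and 2, against 5.56% and 1.56%. Leaving out replicate 2 of D4 CT4.0 left 10 called members at day 4 instead of 21, and leaving out replicate 2 of D4 CT4.0RA left 13.

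Other genes of translation control were read from lists whose members were chosen with earlier results known. On the share 18.9% of all genes were called in either direction, and 16.9% (25.7% of protein-coding genes) had a called slope of -0.5 or less. Of 5 other TOP mRNAs, all 5 rose with the share, led by the ribosomal scaffold RACK1 (1.06 ± 0.06, adjusted p = 1.2e-10 on the share) and the histone chaperone NAP1L1 (0.70 ± 0.13, adjusted p = 0.00125). Of 12 genes of mTOR signalling, which controls TOP mRNAs, 1 rose and 8 fell with the share, 7 of them at -0.5 or less. DDIT4, an mTOR inhibitor, had 2.43 ± 0.58, adjusted p = 0.00678 and MTOR -1.14 ± 0.21, adjusted p = 0.00128. Of 8 integrated stress response genes, which act downstream of eIF2 phosphorylation, 1 fell with the share. RA against CT4.0 raised 1 and lowered 1 of them at day 4 (3.54% and 17.4% of all genes), and at day 8 lowered 7 (15.3%), among them PPP1R15A (-1.26 ± 0.14, adjusted p = 4.1e-07) and ASNS (-1.16 ± 0.14, adjusted p = 1.2e-06). The CT4.0 reference was itself at the end of a called slope over dose at day 8, positive for 6 of the 8 and negative for 2 (10% and 38.3% of all genes), while over CT0.0 to CT2.0 alone 1 was higher and 4 lower (5.23% and 18.4%). Of 6 release and recycling factors 1 (DENR) fell with the share, of 8 mitochondrial translation factors 2 fell, and of 4 MYC family genes none passed.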

How the data were processed

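The authors deposited TPM per gene for poly(A) RNA of 38 libraries. The build hg38, Salmon 0.8.2 and CASAVA 1.7 are named per the submitters' processing notes. Library depth is not given by TPM. Gene types and positions came from GENCODE 29, and start regions from RefSeq GRCh38.p14. A gene was tested if 2 or more libraries reached 1 TPM (28221, of which 15533 protein-coding). Values were fitted on log2(TPM + 1) with limma 3.58.1 (R 4.3.3, trend), as 19 group means with 19 residual degrees of freedom, or as slopes of the group means on the log2 ribosomal protein share. Adjusted p is Benjamini-Hochberg over all genes, with a call under 0.05. The fit was tested on simulated data. Members planned for values by group included the 3 most abundant of each role. In each contrast they included the 2 members with the largest called rise and the 2 with the largest called fall. The 4 highest and 4 lowest slopes, those near 0.5, and paralogue sets were planned too. The text gives TPM by group for only part of these members, and leaves out EIF3F, EIF2S3 and EIF2AK1 among others. Other members and levels were chosen after their values were seen. Members and lists were chosen with earlier results of these data known. Alternatives were another pseudocount or filter, other scalings, and libraries or groups left out. Tables and plots used Python 3.11.15, pandas 2.3.3 and matplotlib 3.10.9.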

Additional observations from a re-analysis of the deposited data

Results flagged for a closer look

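The test of the difference between day 8 and day 4 was called for 37 members in the CT slope and for 19 in the RA effect. The 5 given here differed by at least 0.25 log2 units per µM in the CT slope or by at least 1 log2 unit in the RA effect. The CT slope at day 8 less that at day 4 was -0.35 ± 0.04 (SE; limma, adjusted p = 1.7e-06) log2 units per µM for EEF2KMT, -0.34 ± 0.12 (SE; limma, adjusted p = 0.0354) for EIF5A2 and -0.32 ± 0.04 (SE; limma, adjusted p = 2.4e-07) for EIF5. EEF2KMT went from 13.1 and 14.1 TPM in D8 CT2.0 to 6.90 and 9.497 TPM in D8 CT4.0, and at day 4 from 10.3 and 11.7 TPM in CT0.0 to 15.8 and 16.7 TPM in CT4.0. Over CT0.0 to CT2.0 alone the differences were -0.13, adjusted p = 0.515 for EEF2KMT, -0.43, adjusted p = 0.41 for EIF5A2 and 0.12, adjusted p = 0.444 for EIF5, so none was called without the CT3.0 and CT4.0 groups. The RA effect at day 8 less that at day 4 was -1.13 ± 0.18 (SE; limma, adjusted p = 1.7e-04) for EIF2B2 and -1.06 ± 0.17 (SE; limma, adjusted p = 1.1e-04) for EIF2B3. Both genes stood at their highest group mean in D8 CT4.0, the reference of the day 8 contrast.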

How the results depend on the processing

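The correlation of replicate 1 deviations between groups was -0.0427 to 0.0372 over 171 pairs of groups. A correlation taken over many genes cannot exclude that replicate numbers pair the libraries for some genes or within a day. EIF5B and EIF2S2, picked after their values were seen, were higher in replicate 2 in each group from D4 CT0.4 to D4 CT4.0RA. In D4 IWP2 and D4 CT0.0 both were lower in replicate 2. Pairing within a day was not tested. With the replicate block, 36 members were called for day 4 against day 0, 17 for day 8 against day 4, 0 for IWP2, 32 and 48 for the CT slopes, 38 for their difference, 22 and 33 for RA, 19 for its difference and 45 and 56 by the F tests, and on the share 35 (10 following, 11 against) or 38 with day terms. A replicate term cannot be fitted on group means, so these share counts are not directly comparable with the 26 called on group means. Leaving out a library gave 9 to 15 called members for day 8 against day 4 (19 with all), 0 to 1 for IWP2 at day 4 (the 1 when D4 IWP2 lost replicate 2) and at day 8 (the 1 when D8 CT0.0 lost replicate 1), and 10 to 17 for RA at day 4 (21 with all). With protein-coding genes alone IWP2 at day 8 called 1. With CT doses 0.0 to 2.0, an alternative chosen after seeing the data, 26 members were called at day 8, 10 for the difference, and the day 4 slope of EIF3L turned to 0.20. On the share, 7 members were called with day 4 groups alone and 15 without D8 CT4.0RA. Following members numbered 17 on the total without ribosomal protein and mitochondrial genes, 18 with median-of-ratios scaling (added after seeing the data) and 5 at day 4. Members against it numbered 1, 0 and 2 in the same order, 5 at day 8, 6 without D8 CT4.0RA, and 7 with replicate 1 values on the replicate 2 share. With day terms the 2 scalings gave 21 and 23 following and 2 and 1 against. The cause of these changes was not tested. The fits on 1 day also rest on fewer groups. The fit with day terms was not run within 1 day, where day is constant. With 2 libraries a group and no depth in TPM, changes in scarce members such as EIF4E1B, EEF1A2 and EIF3CL are the least certain.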
